A study of Oncorhynchus mykiss with 6 samples.

Results

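The genes described here are the signal transduction entries of a ribosome footprint table from rainbow trout liver. They are the rows whose KEGG class is signal transduction and which carry no transcription factor family. Heat shock, NF-kappa-B and AP-1 genes and growth and cortisol signalling genes are also left out, by symbol. So are S6 kinases, the translation control genes eif2ak3 and eif4ebp3, and the glucose enzymes pck1, g6pc and gck. This gave 44 entries with 39 distinct symbols, of 76 entries of that KEGG class and 1213 listed entries in all. A total of 25 entries of the class were left out by symbol and 7 more by factor family alone. The rule itself used annotation and no measured value, but it was set with earlier results of these data known. Every row of the table had also been selected by the authors as changed on these same libraries.

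Footprints, the mRNA pieces that a ribosome shields from nuclease, were sequenced from liver in 6 libraries, 3 of a control group and 3 of a heat stress group. Heat stress was 24 °C for 8 h. The control temperature is 18 °C in the sample labels and 20 °C in the treatment protocol. The labels speak of liver kept at these temperatures. They do not say whether whole fish or tissue were exposed, give no strain, sex or age, and do not say whether libraries came from separate fish. P-values therefore measure the spread between libraries, which may be partly technical.

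Signal transduction carries a message from outside or inside the cell to its effectors. A ligand binds a receptor at the cell surface, and the receptor passes the signal on through small G proteins, cascades of kinases, calcium released from the endoplasmic reticulum, or phosphoinositide lipids cut or phosphorylated by membrane enzymes. In liver such routes carry hormone and growth factor signals to metabolism, growth and repair, and the stress-activated branches of the mitogen-activated protein kinase (MAPK) cascade respond to heat and other insults.

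Levels are given in FPKM, footprints scaled to gene length and to library depth, so genes of different length can be compared. Gene roles are those known mainly from mammals. The depth of a library relative to control replicate 1 was recovered from counts and FPKM and ranged from 41.4% to 100%. The listed entries held 362308 to 863769 footprints per library, and the 44 signal transduction entries 3804 to 10094 of these, which is 0.985% to 1.08% in control and 1.12% to 1.19% in heat stress. The hepatocyte genes alb1 (albumin) and apoa-i-1 (apolipoprotein A-I) were at 2758 to 4796 and 15093 to 16021 FPKM in control, and at 1180 to 2185 and 4297 to 8955 FPKM in heat stress. Other hepatocyte genes were higher in heat stress, among them fibrinogen (fga, 288 to 352 FPKM in control and 753 to 902 in heat stress) and 1 of 2 entries of complement c3 (146 to 259 and 553 to 731), while the other c3 entry was lower (289 to 586 and 197 to 246). The 10 entries matched to the hepatocyte list, of which TFG and tfcp2l1 matched by prefix alone, summed to 23229 to 25324 FPKM in control and 9101 to 15308 in heat stress. Most of this sum is apoa-i-1, and it holds fga under 2 spellings with identical values. For red blood cells and for endothelium 0 entries were among those listed. The 1 entry of the fibroblast list, the collagen col1a1b, lay at 57.4 to 70.4 FPKM in control and 26.9 to 29.99 in heat stress. The 2 keratins matched to the bile duct list summed to 97.4 to 137 and 260 to 322. Of these krt79 matched by prefix alone, and krt18 lay at 52.4 to 58.5 FPKM in control and 136 to 171 in heat stress. The 1 entry matched to the leukocyte list, CD46, matched by prefix alone and is made by other cells too. It lay at 50.1 to 78.4 and 140 to 149, and the 2 ZP2 egg coat entries summed to 6.60 to 8.67 and 0.97 to 2.29. The part of cell makeup in the results was not tested. In such bulk samples fewer cells of a type and less RNA per cell cannot be told apart. Footprints also follow mRNA amount as well as translation.

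More of the signalling entries were higher than lower in heat stress, as among all listed entries. By the authors' deposited table, 31 entries (70.5%) were higher and 13 (29.5%) lower, against 76.2% and 23.8% of all 1213. Means differed at least 4-fold in 17 entries (38.6%), against 45.8% of all listed entries. Counts were tested again with limma-voom, a linear model on log2 counts with precision weights, with recovered depth as library size. Benjamini-Hochberg adjustment was made over about 29300 genes, the number the authors tested as estimated from their table. Of 42 entries with enough footprints 27 rose, 9 fell and 6 did not pass an adjusted p of 0.05, so that 85.7% passed, against 87.5% of all tested entries. By direction 64.3% rose and 21.4% fell, against 71.3% and 16.2%. An entry that reached the filter only through heat stress had to differ between the groups. This was so for hgfa, MAPK9 and rasgrf2 among the rises. Every tested entry had been selected on these libraries beforehand, so these shares support no statement on the genome. All 42 had an unadjusted p under 0.05, as had 1151 of the 1152 entries tested in all. The median log2 fold change was 1.44, against 1.66 over all tested entries. FPKM of the groups did not overlap in any of the 44 entries, which held for 98.7% of all listed entries.

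The balance of rises and falls rests on the scale. Recovered depth keeps the authors' totals over whole libraries. TMM factors over the listed genes, which take most listed genes as unchanged, shifted the median log2 fold change of all tested entries by -1.48, and median-of-ratios factors by -1.54. On these scales the 9 falls kept their calls and 4 more entries passed as lower. A downward shift of all estimates favours such calls, so they add no support for a fall. The same holds wherever a fall is said below to pass under TMM. The 2 rises that still passed were those of mknk1 and of rasgrf2. The latter had 0 control footprints and entered the test through heat stress alone. Under TMM 7.81% of all tested entries were called higher and 23.1% lower. The log2 fold change then turned below 0 for 9 of the 27 that rose, none past the test: Camk1, mknk2 entry 2, mknk2b, ccn2a, CLIP1, Slc3a2 entry 3, plcg2, EGFR and DTX3L. Library sizes from the listed footprints shifted the median by -0.929 and turned no sign, with 9 rises and 13 falls past the test. A rise named below is therefore a rise relative to whole-library depth. With each library left out in turn 14 calls held throughout, 12 of rises and 2 of falls. The same number over all tested entries was not counted. Calls were lost there too. Over all listed entries 821 rises became 465 to 714 and 187 falls became 65 to 123 with 1 library left out. Among the signalling entries they became 13 to 25 and 2 to 7.

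**Figure D1:**
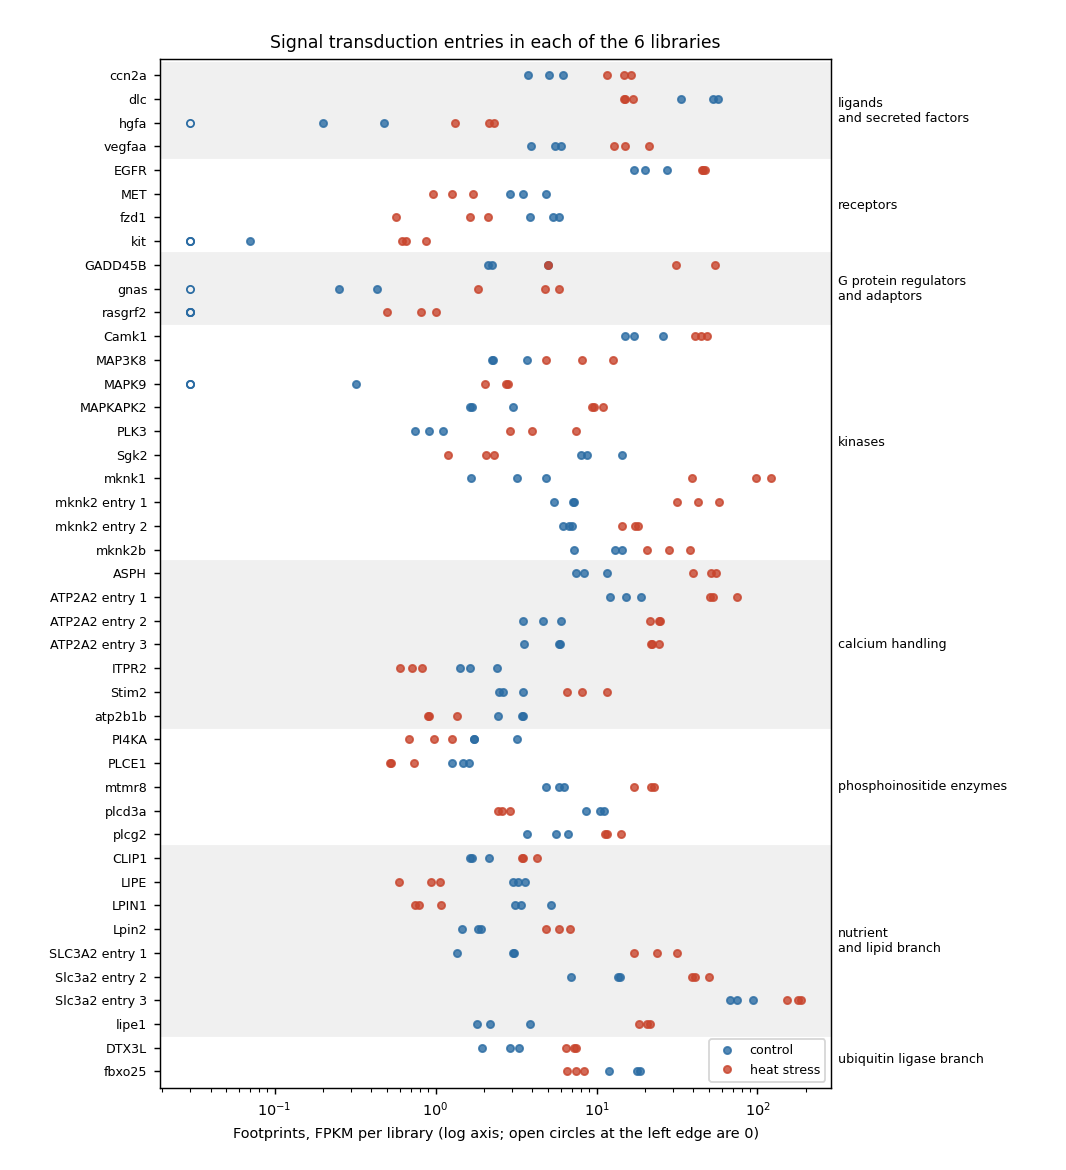
FPKM of the signal transduction entries described here in each library on a log axis, ordered by role, with control libraries in blue, heat stress libraries in red and open circles for 0. The groups do not overlap in any entry, and the levels run from 0 for rasgrf2 in control to 186 FPKM for Slc3a2 entry 3 in heat stress.

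The counts by role below are small, and of all tested entries 71.3% rose and 16.2% fell. No role was tested against another. Among the 4 ligand entries 3 rose and 1 fell. The most abundant, dlc, is a delta-like ligand of Notch, the receptor of contact signalling between neighbouring cells. It stood at 57.1, 33.7 and 52.7 FPKM in control replicates 1, 2 and 3, and at 15.1, 16.8 and 14.9 FPKM in heat stress replicates 1, 2 and 3. The heat stress libraries lay close together, each below the lowest control library. The entry fell by 1.59 ± 0.25 on the log2 scale (SE, adjusted p = 0.0048), and the call held with every library left out in turn.

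The vascular growth factor entry vegfaa, whose product drives vessel growth, was at 5.52, 3.93 and 6 FPKM in control and 12.8, 15.1 and 21.1 FPKM in heat stress. The log2 fold change was 1.63 ± 0.35 (SE, adjusted p = 0.0271). The matricellular factor ccn2a, a connective tissue growth factor, was at 6.21, 3.76 and 5.06 FPKM in control and 11.7, 16.4 and 14.7 FPKM in heat stress. For both, each heat stress library was above all control libraries, with a wider spread in heat stress for vegfaa. The ccn2a rise (log2 fold change 1.47 ± 0.29, adjusted p = 0.0174) became -0.004 under TMM. The vegfaa call did not hold with any 1 control library, or heat stress replicate 2 or 3, left out (adjusted p up to 0.157), and the ccn2a call without the same libraries (adjusted p up to 0.0941).

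The hepatocyte growth factor entry hgfa was barely detected in control, at 0.48, 0 and 0.20 FPKM, and reached 1.33, 2.32 and 2.15 FPKM in heat stress. Hepatocyte growth factor is the ligand of the receptor MET. Its log2 fold change was 3.40 ± 0.76 (SE, adjusted p = 0.0318), and it could be tested only because of its level in heat stress. The call was lost without control replicates 2 or 3 (adjusted p = 0.0755 and 0.0645), and with any 1 heat stress library left out the entry had too few footprints to test.

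The 5 receptor entries held 1 rise, 2 falls, 1 entry that did not pass and 1 below the filter. MET, the hepatocyte growth factor receptor, was at 3.51, 4.84 and 2.89 FPKM in control and 0.96, 1.27 and 1.71 FPKM in heat stress, with each heat stress library below the lowest control library. MET fell by 1.48 ± 0.33 on the log2 scale (SE, adjusted p = 0.0312), a call that was lost with control replicate 1 or 2, or any heat stress library, left out (adjusted p up to 0.157).

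EGFR, the epidermal growth factor receptor entry, had the tightest heat stress values of all 44 entries. Its annotated description begins with "melanoma". It was at 17.1, 20.0 and 27.3 FPKM in control and 45.0, 47.2 and 46.2 FPKM in heat stress, so the heat stress libraries differed from each other by 1.05-fold at most. The log2 fold change was 1.13 ± 0.22 (SE, adjusted p = 0.0164), and -0.36 under TMM. The call was lost with control replicate 1 or 2, or heat stress replicates 2 or 3, left out (adjusted p up to 0.0738).

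The Wnt receptor fzd1 did not pass, at 5.35, 5.81 and 3.87 FPKM in control and 1.64, 2.12 and 0.57 FPKM in heat stress (adjusted p = 0.0513). It was lower in each heat stress library than in any control library, and passed under TMM (adjusted p = 0.0019), whose downward shift favours falls. The stem cell factor receptor kit had 1 footprint in control and 27 in heat stress and was not tested. Per unit of depth this is a ratio of 33.4, with an exact binomial 95% interval of 5.51 to 1368 that covers counting error only.

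The 3 entries grouped as G protein regulators and adaptors were all higher in the authors' deposited table, as were 76.2% of all listed entries. Of the 3 entries 1 passed. The entry rasgrf2, an exchange factor that loads Ras with GTP, had 0 footprints in every control library and 0.81, 0.50 and 1 FPKM in heat stress, from 45 footprints. With the 3 control libraries together set to a floor of 3 footprints, the heat stress level was 18.6-fold higher per unit of depth. This ratio leaves out counting error. The fitted change passed (adjusted p = 0.00044). Like hgfa, rasgrf2 passed the filter through heat stress alone. It was testable without control replicates 2 or 3 only and passed in both. The same filter route held there, so its p-value and these passes add no support for a rise.

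The stimulatory G protein alpha subunit gnas, which switches on cAMP synthesis, had 3 footprints in control and 49 in heat stress and was not tested. Per unit of depth the ratio was 20.2, with an exact binomial 95% interval of 6.52 to 101 that covers counting error only. Its heat stress libraries were at 1.84, 4.81 and 5.86 FPKM, against 0, 0.43 and 0.25 in control.

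GADD45B, a stress-induced activator of MAPK kinase kinases, varied most among the heat stress libraries. It was at 2.23, 5.02 and 2.13 FPKM in control and 5.03, 31.0 and 54.3 FPKM in heat stress. Heat stress replicate 1 was thus level with control replicate 2, while the other heat stress libraries lay far above. The log2 fold change of 2.73 ± 1.04 did not pass (SE, adjusted p = 0.619). Without heat stress replicate 1 it passed (log2 fold change 3.81, adjusted p = 0.00361), and without another library it did not.

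Kinases were the most numerous role, with 10 entries of which 8 rose, 1 fell and 1 did not pass, where 71.3% of all tested entries rose. The Mnk kinases stood out in number with 4 entries, all higher. Mnk kinases are switched on by the MAPKs ERK and p38 and phosphorylate the cap-binding initiation factor eIF4E. The entry mknk1 was at 3.19, 1.67 and 4.86 FPKM in control and at 39.2, 121 and 97.5 FPKM in heat stress. Even its lowest heat stress library was several times the highest control library. Its mean rose 26.5-fold, with a log2 fold change of 4.71 ± 0.52 (SE, adjusted p = 0.000586), which held with every library left out in turn and under TMM (3.23, adjusted p = 0.0053).

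Mnk2 had 3 entries, 2 named mknk2 and 1 mknk2b. The first was at 5.45, 7.25 and 7.19 FPKM in control and 42.6, 31.5 and 57.7 FPKM in heat stress. The second had nearly the same control level, 6.23, 7.02 and 6.78 FPKM, but reached only 14.3, 18.1 and 17.3 FPKM in heat stress. Copies of Mnk2 with like control levels thus differed in their heat stress level without overlap between the libraries. Entry 1 rose by a log2 fold change of 2.71 ± 0.28 (SE, adjusted p = 0.000417) and entry 2 by 1.30 ± 0.23 (adjusted p = 0.0101). The difference between them was not tested, and near-identical copies may share footprints. The third, mknk2b, was at 7.21, 14.4 and 13.1 FPKM in control and 20.5, 38.3 and 28.0 FPKM in heat stress. In both groups its replicate 1 was lowest. This is a log2 fold change of 1.33 ± 0.32 (adjusted p = 0.0487). The call for entry 2 was lost without control replicate 1 (adjusted p = 0.0642), and that for mknk2b with any 1 library except heat stress replicate 1 left out (adjusted p up to 0.253). Under TMM entry 2 (-0.19) and mknk2b (-0.15) turned below 0, and entry 1 did not pass (1.21, adjusted p = 0.137).

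Of the other MAPK cascade kinases, MAPKAPK2, a target of p38 that stabilises mRNAs of inflammatory proteins and phosphorylates the small heat shock protein Hsp27, was at 1.63, 1.68 and 3.03 FPKM in control and 9.38, 11.0 and 9.68 FPKM in heat stress. The heat stress libraries were close together and at least 3 times any control library. MAPKAPK2 rose by a log2 fold change of 2.30 ± 0.35 (SE, adjusted p = 0.00397), and the call held with every library left out in turn. MAPK9, a Jun N-terminal kinase, had 2 footprints in control and 38 in heat stress, at 0.32, 0 and 0 FPKM against 2.80, 2.03 and 2.75. Per unit of depth this is a ratio of 23.5, with an exact binomial 95% interval of 6.08 to 201 that covers counting error only. The fitted change passed (adjusted p = 0.00267). MAPK9 could be tested only through its level in heat stress. It passed without each control library in turn, but by the same route, so its p-value and these passes add no support for a rise. MAP3K8, a kinase kinase kinase upstream of ERK, did not pass, at 2.24, 2.29 and 3.71 FPKM in control and 4.85, 12.7 and 8.07 FPKM in heat stress (adjusted p = 0.0923). As with GADD45B, heat stress replicate 1 was the lowest, and MAP3K8 passed without it (adjusted p = 0.0135).

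The remaining kinases act outside the MAPK cascade. Camk1, a calmodulin-dependent kinase, was at 17.2, 26.1 and 15.01 FPKM in control and 44.7, 41.1 and 48.4 FPKM in heat stress, a narrow band above all control libraries. Its log2 fold change of 1.25 ± 0.24 (SE, adjusted p = 0.0163) became -0.25 under TMM. The call was lost with control replicate 1 or 3, or heat stress replicate 3, left out (adjusted p up to 0.0896). PLK3, a polo-like kinase of the stress response, was at 1.12, 0.91 and 0.75 FPKM in control and 2.89, 7.43 and 3.98 FPKM in heat stress. Heat stress replicate 2 was highest. PLK3 rose by a log2 fold change of 2.10 ± 0.47 (adjusted p = 0.0319), with the call lost with any 1 library except heat stress replicate 1 left out (adjusted p up to 0.118).

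Sgk2, a serum- and glucocorticoid-regulated kinase family member, was the kinase that fell. It was at 7.97, 14.3 and 8.68 FPKM in control and 2.31, 2.07 and 1.19 FPKM in heat stress, with all heat stress libraries far below control. It fell by 2.42 ± 0.45 on the log2 scale (SE, adjusted p = 0.0118). This is the most negative log2 fold change of the tested signalling entries. The call was lost without heat stress replicates 1, 2 or 3 (adjusted p up to 0.145).

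**Figure D2:**
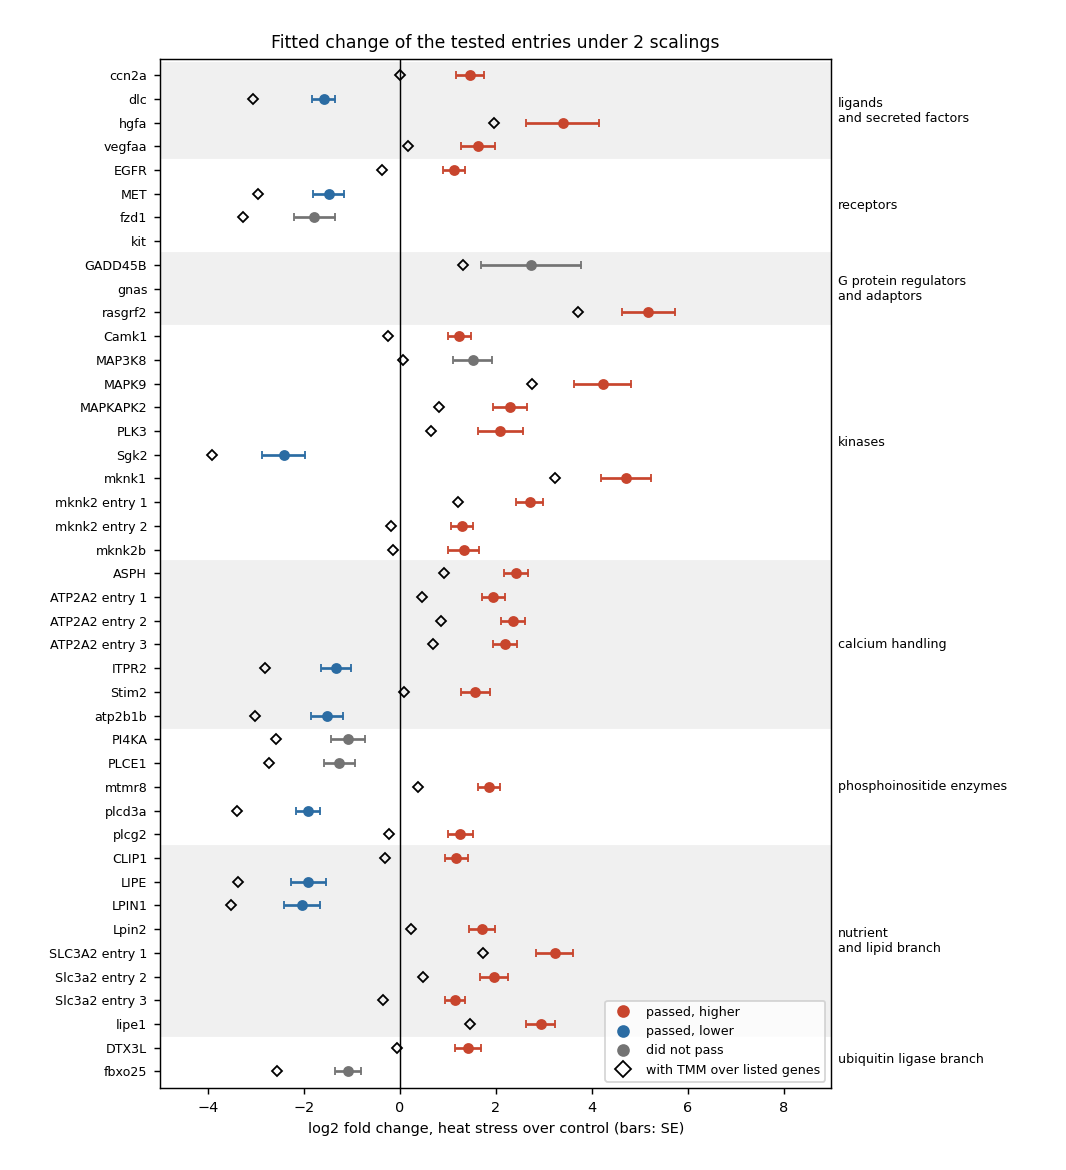
Log2 fold change with SE (horizontal axis) of the tested entries described here, by role, with red for passed and higher, blue for passed and lower, gray for not passed, and open diamonds for the estimate with TMM over the listed genes. The falls stay below 0 on both scales, as the downward shift under TMM implies, while 9 of the 27 rises turn below 0 under TMM. The entries kit and gnas, which were not tested, have no point.

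Calcium handling genes set how much of the ion is stored, released or exported. Of 7 entries 5 rose and 2 fell, where 71.3% of all tested entries rose. The endoplasmic reticulum calcium pump SERCA2, which fills the store, had 3 entries named ATP2A2, and all rose. Entry 1 was at 12.1, 18.8 and 15.3 FPKM in control and 50.8, 74.6 and 52.8 FPKM in heat stress. Entries 2 and 3 had control levels of 3.51 to 6.06 and 3.53 to 5.93 FPKM, and heat stress levels of 21.4 to 24.8 and 21.9 to 24.5 FPKM. In each the heat stress libraries lay well apart from control. They were near to each other in entries 2 and 3 (highest over lowest 1.16-fold and 1.12-fold), and less so in entry 1 (1.47-fold). The log2 fold changes were 1.95 ± 0.24, 2.36 ± 0.25 and 2.19 ± 0.25 (SE, adjusted p = 0.00128, 0.000461 and 0.000816). Each estimate lay within 2 SE of the others, all calls held with every library left out in turn, and 0 of the 3 passed under TMM (0.46, 0.87 and 0.70). The copies may share footprints.

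ASPH, an endoplasmic reticulum membrane gene that encodes an aspartyl hydroxylase and, by alternative forms, calcium-store proteins, was at 7.45, 11.6 and 8.32 FPKM in control and 40.1, 51.6 and 54.9 FPKM in heat stress. It rose by a log2 fold change of 2.42 ± 0.25 (SE, adjusted p = 0.000412), and the call held with every library left out in turn but not under TMM (adjusted p = 0.0962). Stim2, a sensor of calcium in the store that opens entry channels when the store runs low, was at 3.50, 2.49 and 2.62 FPKM in control and 6.58, 8.16 and 11.7 FPKM in heat stress. Every heat stress library was above control. Stim2 rose by a log2 fold change of 1.57 ± 0.30 (adjusted p = 0.0151), and the call was lost with any control library or heat stress replicate 3 left out (adjusted p up to 0.0723).

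The 2 calcium entries that fell release or export the ion. ITPR2, an inositol trisphosphate receptor and so a release channel of the store, was at 1.64, 2.40 and 1.42 FPKM in control and 0.82, 0.71 and 0.60 FPKM in heat stress. It fell by 1.32 ± 0.31 on the log2 scale (SE, adjusted p = 0.0437). The entry atp2b1b, a plasma membrane calcium pump, was at 2.46, 3.50 and 3.45 FPKM in control and 1.35, 0.90 and 0.91 FPKM in heat stress, and fell by 1.52 ± 0.33 (adjusted p = 0.0274). Both were low in all heat stress libraries. The ITPR2 call was lost with any 1 of the 6 libraries left out (adjusted p from 0.0617 to 0.326), and the atp2b1b call with any except control replicate 1 left out (adjusted p up to 0.277). Both kept their calls under TMM, whose downward shift favours falls.

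Phosphoinositide enzymes had 5 entries, of which 2 rose, 1 fell and 2 did not pass. Phospholipases C cut a membrane phosphoinositide into diacylglycerol and inositol trisphosphate, the ligand of the release channel. The delta-type plcd3a was at 10.5, 8.65 and 11.1 FPKM in control and 2.92, 2.58 and 2.45 FPKM in heat stress. The spread was small in both groups. It fell by 1.92 ± 0.26 on the log2 scale (SE, adjusted p = 0.00205), and was with dlc the fall whose call held with every library left out in turn. The epsilon-type PLCE1, which Ras also activates, was at 1.48, 1.26 and 1.61 FPKM in control and 0.52, 0.73 and 0.53 FPKM in heat stress, and did not pass (adjusted p = 0.0717) but passed as lower under TMM (adjusted p = 0.000786). The gamma-type plcg2, activated by tyrosine kinases, went the other way. It was at 3.69, 6.67 and 5.62 FPKM in control and 14.2, 11.3 and 11.6 FPKM in heat stress, all above control. Its log2 fold change of 1.26 ± 0.26 (adjusted p = 0.0207) became -0.23 under TMM, and the call was lost with any 1 library except control replicate 2 left out (adjusted p up to 0.0993).

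The 2 other lipid enzymes also differed in direction. The myotubularin family entry mtmr8, a family of phosphoinositide phosphatases, was at 4.84, 6.24 and 5.87 FPKM in control and 17.1, 21.7 and 22.8 FPKM in heat stress. It rose by a log2 fold change of 1.86 ± 0.24 (SE, adjusted p = 0.00147), with the call held when any library was left out and lost under TMM (0.38). PI4KA, a phosphatidylinositol kinase of the plasma membrane, did not pass, at 1.74, 3.22 and 1.73 FPKM in control and 1.26, 0.68 and 0.98 FPKM in heat stress (adjusted p = 0.273), but passed as lower under TMM (adjusted p = 0.00303).

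The nutrient and lipid branch held 8 entries, of which 6 rose and 2 fell, where 71.3% of all tested entries rose. SLC3A2, the 4F2 heavy chain that brings amino acid exchangers to the cell surface and so feeds the mTOR kinase, had 3 entries, and all rose by recovered depth. Entry 1 was at 3.06, 3.01 and 1.36 FPKM in control and 17.1, 23.6 and 31.9 FPKM in heat stress. Entry 2 was at 13.6, 6.98 and 14.0 FPKM in control and 39.1, 50.3 and 40.8 FPKM in heat stress. Entry 3, the most abundant signalling entry, was at 67.1, 93.8 and 75.1 FPKM in control and 186, 153 and 179 FPKM in heat stress. The order of levels was the same in both groups, and the fold was smaller the more abundant the entry. Means rose 9.77-fold, 3.76-fold and 2.20-fold, with log2 fold changes of 3.23 ± 0.38, 1.97 ± 0.28 and 1.15 ± 0.21 (SE, adjusted p = 0.000963, 0.00314 and 0.0119). Differences between the entries were not tested. The entry 3 call was lost with control replicate 1 or 3, or heat stress replicate 3, left out (adjusted p up to 0.065). Under TMM entry 3 turned to -0.34 and entries 1 and 2 did not pass (adjusted p = 0.0584 for entry 1).

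The lipins, phosphatidate phosphatases that make diacylglycerol, of which lipin 1 is a substrate of mTOR, moved in opposite directions. LPIN1 was at 3.38, 5.20 and 3.12 FPKM in control and 0.75, 0.79 and 1.08 FPKM in heat stress, whereas Lpin2 was at 1.91, 1.84 and 1.45 FPKM in control and 4.84, 6.84 and 5.85 FPKM in heat stress. The order of their levels was inverted between the groups without overlap. LPIN1 fell by 2.04 ± 0.37 on the log2 scale (SE, adjusted p = 0.0112), and Lpin2 rose by 1.71 ± 0.27 (adjusted p = 0.00561). The Lpin2 call held with every library left out in turn and was lost under TMM (0.23), and the LPIN1 call was lost without heat stress replicates 1, 2 or 3 (adjusted p up to 0.0844).

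Hormone-sensitive lipase, which releases fatty acids from stored fat under control of cAMP, likewise has an entry of each direction. The entry lipe1 was at 3.87, 2.17 and 1.82 FPKM in control and 18.4, 21.4 and 20.7 FPKM in heat stress. LIPE was at 3.02, 3.24 and 3.61 FPKM in control and 0.59, 1.06 and 0.94 FPKM in heat stress. In control the entries overlapped, with lipe1 higher in replicate 1 and LIPE in replicates 2 and 3, and in each heat stress library lipe1 was over 10 times LIPE. The log2 fold changes were 2.94 ± 0.31 for lipe1 (SE, adjusted p = 0.000417) and -1.91 ± 0.37 for LIPE (adjusted p = 0.015). The lipe1 call held with every library left out in turn and missed the threshold under TMM (adjusted p = 0.0577). CLIP1, a microtubule plus-end protein and substrate of mTOR, was at 1.68, 1.63 and 2.15 FPKM in control and 3.42, 4.28 and 3.48 FPKM in heat stress, each above control. Its log2 fold change of 1.18 ± 0.25 (adjusted p = 0.0219) became -0.30 under TMM, and the call was lost with any 1 library except heat stress replicate 1 left out (adjusted p up to 0.137). The LIPE call was lost without heat stress replicates 1, 2 or 3 (adjusted p up to 0.12).

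**Figure D3:**
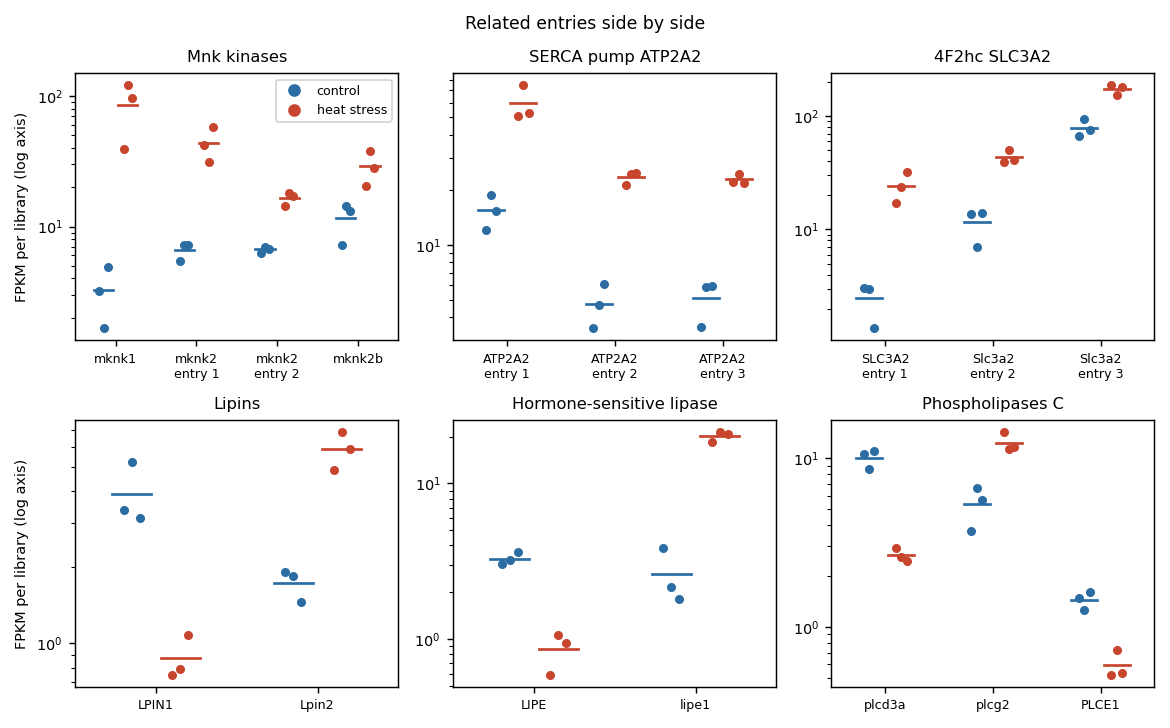
FPKM per library (log axis, points) and group means (bars) for related entries in control (blue) and heat stress (red). The Mnk, ATP2A2 and SLC3A2 entries are all higher in heat stress by FPKM, though under TMM mknk2 entry 2, mknk2b and Slc3a2 entry 3 turn below 0. By FPKM the lipins, the hormone-sensitive lipase entries and the phospholipases C each hold entries of both directions. Under TMM plcg2 turns below 0 too, so all phospholipases C shown are then below 0.

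The 2 ubiquitin ligase entries had opposite signs. DTX3L, a deltex family ligase placed by KEGG in Notch signalling, was at 1.95, 3.29 and 2.90 FPKM in control and 6.42, 7.41 and 7.27 FPKM in heat stress. Its log2 fold change of 1.42 ± 0.28 (SE, adjusted p = 0.0151) became -0.07 under TMM, and the call was lost with control replicate 1 or 3, or heat stress replicates 2 or 3, left out (adjusted p up to 0.0994). The F-box entry fbxo25, a substrate receptor of a ligase complex, was at 17.8, 18.5 and 11.99 FPKM in control and 6.60, 7.47 and 8.32 FPKM in heat stress. It was lower in every heat stress library and did not pass (adjusted p = 0.0713), but passed under TMM.

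Spread among the heat stress libraries was concentrated in a few entries. The highest heat stress library was at least 2 times the lowest in 7 of 44 entries (15.9%), against 24.5% of the listed entries with footprints in every heat stress library. It was at least 3 times the lowest in 4: GADD45B (10.8-fold), fzd1 (3.72-fold), gnas (3.18-fold) and mknk1 (3.10-fold). In GADD45B, gnas and mknk1 the lowest was heat stress replicate 1. That library was the lowest of its group in 24 of the 31 entries higher in heat stress (77.4%), as it was in 65.8% of all such listed entries. It was the lowest in 5 of the 13 entries that were lower (38.5%, against 20.1% of all listed entries that were lower). Control replicate 1 was the lowest control library in 15 of the 31 (48.4%, against 42.4%), and control replicate 2 the highest in 9 of the 13 (69.2%, against 52.6%). The source of this order was not tested.

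**Figure D4:**
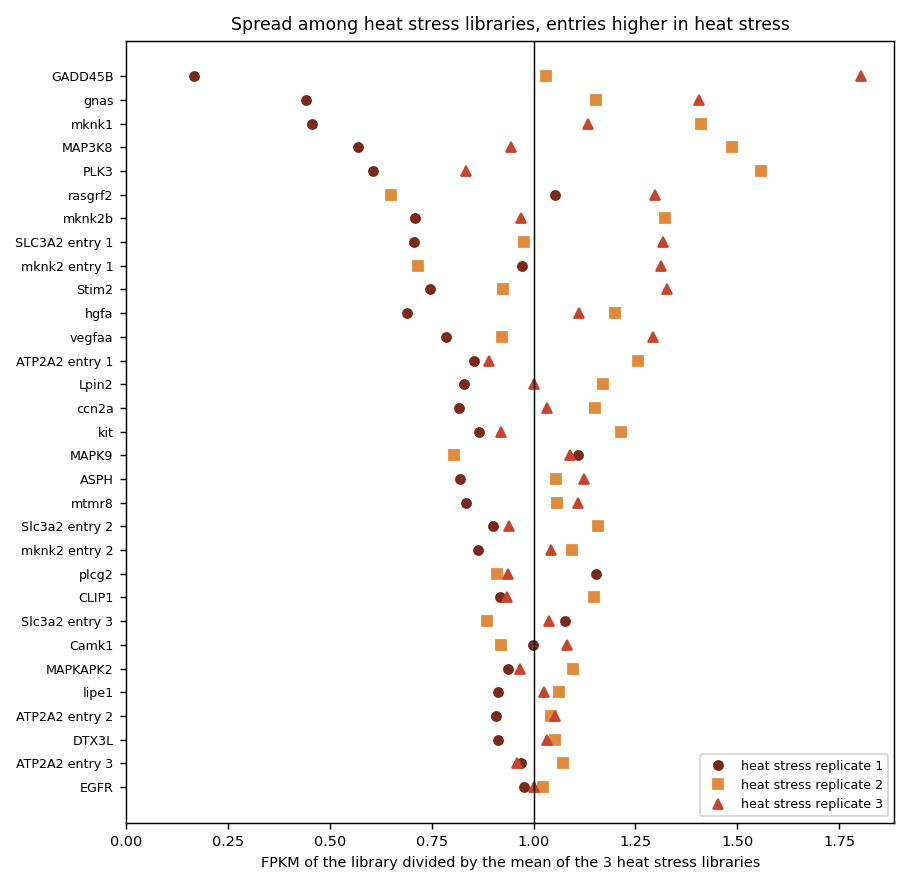
FPKM of each heat stress library divided by the mean of the 3 (horizontal axis), for the 31 entries higher in heat stress by FPKM, sorted by spread. GADD45B, gnas and mknk1 have the widest range with replicate 1 lowest, and EGFR the narrowest, with a highest to lowest ratio of 1.05.

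By the first KEGG pathway given for an entry, MAPK signalling held 15 entries and calcium signalling 12. In MAPK signalling 10 rose and 2 fell, MET among them, with 2 that did not pass and 1 below the filter. In calcium signalling 7 rose and 3, ITPR2, atp2b1b and plcd3a, fell, with 1 that did not pass and 1 below the filter. The mTOR pathway had 6 entries, 5 higher and 1 lower. The apelin pathway had 3 (2 higher, 1 lower), FoxO 3 (1 higher, 1 lower, 1 that did not pass), Notch 2 (1 of each direction), phosphatidylinositol 2 (1 higher, 1 that did not pass) and Wnt 1, which did not pass. As among all tested entries rises were the majority in the MAPK, calcium and mTOR groups, and no group was tested against another.

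Pathway lists matched by the start of the symbol give the wider setting over all listed entries, most of them outside the 44. Over all 16 lists 116 distinct entries were tested, of which 80 rose and 23 fell, beside the 71.3% and 16.2% of all tested entries given above. Under TMM 2 were called higher and 28 lower. A match by the start of the symbol also takes in genes outside the named pathway, which are counted, and several of which are named below. The MAPK list (10 entries) held 7 rises, 1 fall and 2 that did not pass, with 8 of its entries among those described above. Of the others spryd3, a SPRY domain gene matched by prefix, is 1 of the rises (log2 fold change 2.01 ± 0.39, SE, adjusted p = 0.0159), and MAP3K19 is the fall. The list of calcium and phospholipase C genes (12 entries, 10 described above) held 6 rises, 5 falls and 1 that did not pass, and its median log2 fold change was -0.007. Its other members were PLCL2, a phospholipase-like protein without activity, which fell by 1.81 ± 0.37 (SE, adjusted p = 0.0202), and slc25a48, a mitochondrial carrier matched by prefix, which fell by 1.34 ± 0.23 (adjusted p = 0.00864).

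The PI3K-Akt-mTOR list (17 entries) was also divided, with 7 rises, 6 falls, 3 that did not pass and 1 not tested. The entries igfbp1a and IGFBP5, binding proteins matched by prefix, are among those that did not pass. Deptor, an inhibitor of mTOR, had 2 entries, and both fell, by 1.85 ± 0.29 (SE, adjusted p = 0.0046) and 1.36 ± 0.33 (adjusted p = 0.0488). The insulin receptor substrate irs1 had a mean of 0.240 FPKM in control, which became 1.59 FPKM with heat stress, per the authors' deposited table. The fit gave a log2 fold change of 2.62 ± 0.46 (adjusted p = 0.00906). All 8 Hippo list entries rose, where 71.3% of all tested entries did, among them 2 entries of STK38L, an NDR kinase, with log2 fold changes of 3.65 ± 0.31 (adjusted p = 0.000129) and 4.50 ± 0.75 (adjusted p = 0.00703). Like the STK38L entries, the 2 stk40 entries of the list were matched by prefix alone. Another member is mob1a, a co-activator of NDR kinases (log2 fold change 1.24 ± 0.24, adjusted p = 0.0145). The second STK38L entry had a control mean of only 0.34 FPKM, and its heat stress mean was 6.01. Whether this entry and irs1 reached the filter through heat stress alone was not tested. An entry that did so had to differ between the groups, and its p-value then adds no support for a rise.

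In the cAMP and G protein list (12 entries) 10 rose and 2 were not tested, where 71.3% of all tested entries rose. Pde4b, which degrades cAMP, had a log2 fold change of 2.90 ± 0.47 (SE, adjusted p = 0.00601), and GNAI2, the inhibitory G protein subunit, 2.91 ± 0.55 (adjusted p = 0.0131). The list holds 3 creb3l entries and 2 of crebrf, transcription factors or their regulators, by prefix, and by prefix also vipas39, a vesicle sorting gene. PRKAG1, a subunit of the AMP-activated kinase AMPK, is a further prefix match. All of these are among the rises, so most rises of the list are such matches. In the TNF and cell death adaptor list (12 entries) 9 rose, 2 missed the threshold and 1 had too few footprints, where 71.3% of all tested entries rose. Of the 9, 2 are Ripk4 entries with identical values. A RIPK2 entry and a TNIP2 entry among the 9 had control means of only 0.237 and 0.377 FPKM. Whether they reached the filter through heat stress alone was not tested, so the limit given for irs1 applies to them too.

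The smaller lists were as follows. In the JAK-STAT list 3 of 4 entries rose, among them the kinase jak1 (log2 fold change 1.65 ± 0.27, SE, adjusted p = 0.00585), and the leptin receptor LEPR fell by 1.60 ± 0.30 (adjusted p = 0.0121). The receptor tyrosine kinase and growth factor list (8 entries) held 4 rises, 3 falls and 1 not tested. Of the rises mettl9, a methyltransferase, matched by prefix, and hgfa could be tested only through its heat stress level. The list's fall outside the 44 was Hgfac, a protease that activates hepatocyte growth factor, by 1.88 ± 0.41 (adjusted p = 0.0283). All 3 entries of the HIF and angiogenesis list rose, with egln1, the oxygen-sensing hydroxylase, at a log2 fold change of 1.23 ± 0.27 (adjusted p = 0.0292). The adhesion list (4 entries) held 2 rises and 2 falls, of which pxn1 is described as a pentraxin and matched by prefix. The TGF-beta and BMP list (4 entries) had 1 rise, 2 that did not pass and 1 not tested. The p53 list (3 entries) had 1 rise, 1 fall and 1 not tested, and the Wnt list (2 entries) 1 fall and 1 that did not pass. The Notch list and the AMPK list had 1 entry each, and both entries rose. The AMPK entry is the PRKAG1 entry already counted in the cAMP and G protein list. The prefixes of the Notch list do not match the Notch ligand dlc, which fell.

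**Figure D5:**
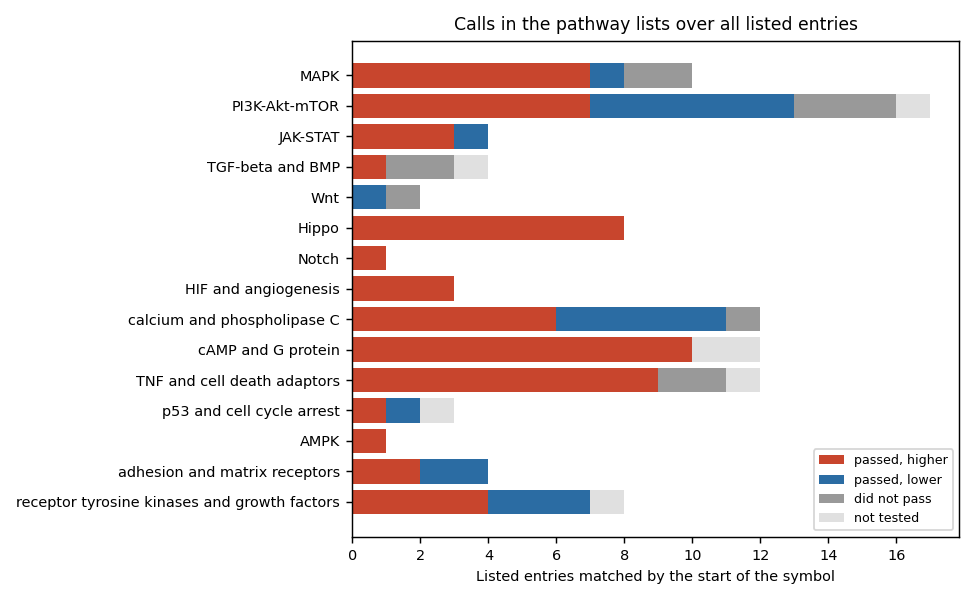
Number of listed entries (horizontal axis) in each pathway list described here that passed as higher (red), passed as lower (blue), did not pass (dark gray) or were not tested (light gray), by recovered depth. The calcium and phospholipase C list holds 6 rises and 5 falls. The Hippo list holds 8 rises, those of its STK38L and stk40 entries matched by prefix alone. Under TMM 2 entries over all 16 lists were called higher.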

How the data were processed

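The authors deposited 1 fixed-width table (8 characters per cell) with whole-number footprint counts, FPKM, group means, log2 fold change, p-value and FDR per gene, per the file headers. Per the submitters' processing notes, Bowtie2 and edgeR were used; their roles and versions are unstated there. The build and annotation: not given in the sources used here. Identifiers are cut to 4 distinct strings, so no coordinates or sequences are given. Every listed entry has an FDR below 0.05 and a change of 2-fold or more by the authors' columns.

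Relative depth was the median ratio of count to FPKM over 94 entries with at least 200 footprints and 10 FPKM in every library (SD up to 1.26%). The 1152 entries that reached 10 footprints, scaled to depth, in at least 3 libraries, and a total of 15, were tested with limma-voom (limma 3.58.1, R 4.3.3). This follows the fixed design. The count columns were entered as unit other, since their cells touch. The test was checked on simulated counts with 200 entries changed in random directions and a dispersion of 0.05. It called 18.9% of tested entries with a log2 change of 1, 90.7% of those with 2, and 0 of 967 unchanged ones. The depths were known there and fewer entries changed than were called in the data, so the choice of scale was not checked. Counts of replicates in a group differed by more than sampling noise (chi-square over degrees of freedom from 14.0 to 33.7).

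The entries, roles and lists were chosen with earlier results of these data known. Named entries are those of the rule in the design (largest changes, most abundant, smallest p per role, repeated symbols, not passed), plus the few others of the 44. Values of 1 entry and of 1 pathway list, which enter the counts, are not reported here. List members outside the 44 were chosen after their values were seen. SE is the standard error of the fit. Tables were made with pandas 2.3.3, scipy 1.17.1 and numpy 2.4.6 under Python 3.11.15, and plots with matplotlib 3.10.9.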

Additional observations from a re-analysis of the deposited data

How the results depend on the processing

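Counts of calls depended on the scaling and on the libraries. With 27 rises and 9 falls among the signalling entries by recovered depth, TMM gave 2 rises, median of ratios 2 and listed footprints 9, with 13 falls under each. Over all listed entries these scalings called 90, 88 and 207 higher in place of 821, and 2, 2 and 7 of the pathway list entries in place of 80. With TMM the log2 fold change was -0.25 for Camk1, -0.19 for mknk2 entry 2, -0.15 for mknk2b, -0.0039 for ccn2a, -0.30 for CLIP1, -0.34 for Slc3a2 entry 3, -0.23 for plcg2, -0.36 for EGFR and -0.066 for DTX3L. With median of ratios it was -0.30, -0.24, -0.20, -0.058, -0.36, -0.40, -0.29, -0.42 and -0.12 for the same entries in that order. These scalings take most listed genes as unchanged, by construction. At least 10 FPKM in 3 libraries left 651 entries with 459 rises and 97 falls, and 21 signalling entries with 17 rises and 1 fall, since fewer were tested. Leaving out 1 library gave 13 to 25 rises and 2 to 7 falls among the signalling entries, 465 to 714 and 65 to 123 over all, and 29 to 75 and 7 to 15 in the pathway lists. Without a heat stress library, entries with few control footprints could not reach 10 footprints in 3 libraries, so hgfa, MAPK9 and rasgrf2 were not tested. Same-numbered libraries did not deviate together (correlation of deviations from -0.053 to 0.011, against -0.045 to 0.077 for other pairs). This gave no sign of pairing by number, but so few libraries cannot exclude it. With the replicate block 29 signalling entries rose and 9 fell, with GADD45B (adjusted p = 0.0027) and MAP3K8 (adjusted p = 0.017) added. No filter, quality weights, log2(FPKM + 1), log2(FPKM + 0.1) and adjustment over the listed entries gave 24 to 29 rises and 6 to 13 falls. Depth limits gnas, kit, MAPK9 and rasgrf2 most, with 0 to 3 control footprints each.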
